A study of Mus musculus with 3 samples.

Results

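The CDK inhibitor genes and the retinoblastoma family were followed in mouse embryonic stem (ES) cells and mouse embryonic fibroblasts (MEF). These 10 genes were Cdkn1a, Cdkn1b and Cdkn1c of the Cip/Kip family, Cdkn2a, Cdkn2b, Cdkn2c and Cdkn2d of the INK4 family, and the pocket protein genes Rb1, Rbl1 and Rbl2. Their probes were taken by gene name, without regard to signal, which gave 15 of the 41174 gene probes on the array. RNA of 3 untreated ES cell replicates, grown with fetal serum and leukemia inhibitory factor, went onto 3 two-colour arrays with the dye Cy3. Each array also held Cy5-labelled RNA of MEF grown in a serum medium without that factor. The dyes were not swapped, so a dye effect of a single probe cannot be told apart from a difference between the cells. The MEF RNA counted as 1 control whose own spread was not measured, and the sources used here give neither strain, passage number nor separate cultures, so a p-value here reflects array-to-array spread that may be technical only.

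Cyclin-dependent kinases drive the cell from G1 into S phase, and in the textbook scheme they do so by phosphorylating the pocket proteins, which then release E2F transcription factors from repression. INK4 proteins bind the kinases that partner D-type cyclins, whereas Cip/Kip proteins bind cyclin and kinase complexes more broadly. Mouse ES cells are known for a short G1 phase and low levels of several of these inhibitors, and primary fibroblasts for accumulating products of the Cdkn2a locus during culture.

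Values are given as normalized signal, in linear intensity units after background correction with an added offset, and as the log2 ratio of ES cells over MEF. A negative ratio is thus a lower level in ES cells. Probes differ in how brightly they hybridise, so ratios, not signals, were compared between genes. A probe was called when limma gave an adjusted p under 0.05 and the ratio was at least 2-fold. The adjusted p alone separated little, since 95.4% of the 29458 tested probes passed it.

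In ES cells 6 of the 7 inhibitor genes fell, by 3.81-fold to 12.4-fold, and none of the 3 retinoblastoma family genes was called. The 6 were Cdkn1a, Cdkn1b, Cdkn1c, Cdkn2a, Cdkn2b and Cdkn2c, each represented by its brightest probe, which for Cdkn1b was the only one of 3 to be called. Across all 19477 tested genes 22.5% were called lower, 20.4% higher and 42.8% either way, and of the 10 genes 6 were lower and 0 higher. The Cip/Kip genes had a median log2 ratio of -2.41, the INK4 genes of -2.29 and the retinoblastoma family of 0.22, beside -0.050 for all tested genes. By probe, 7 of the 15 were called lower and 0 higher, where 21.1% and 19.9% of all tested probes were, 41.0% in all. All 15 probes passed the filter on dim probes. In both channels, each was well above background on 3 of 3 arrays. None of their 153 spots had a saturated pixel or was flagged as an outlier.

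**Figure D1:**
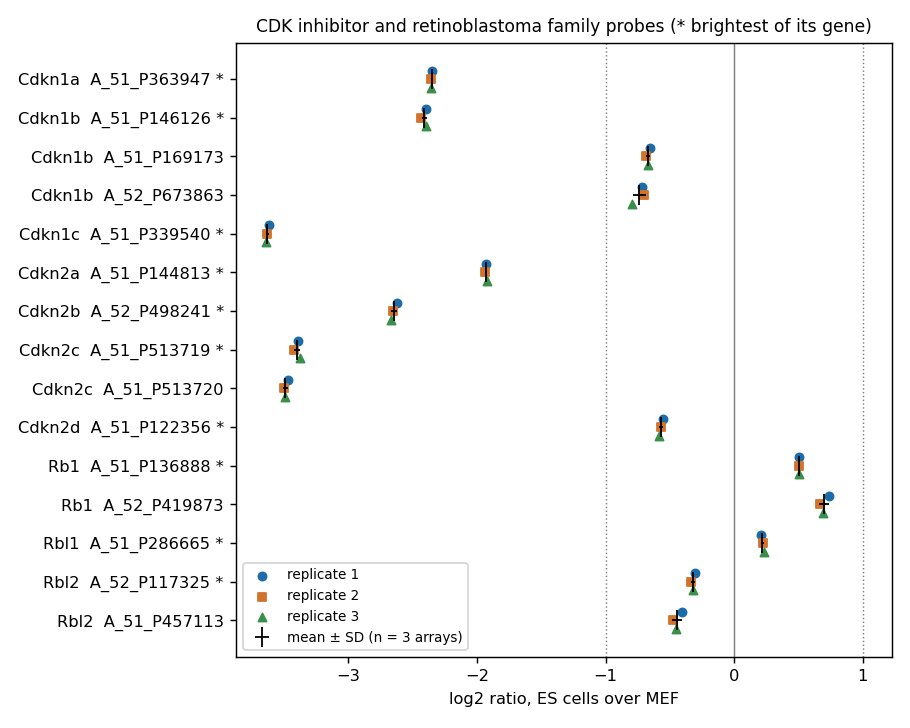
Log2 ratio of ES cells over MEF for each of the 15 probes, with 1 point per array and the mean ± SD of 3 arrays. The dotted lines mark the 2-fold limits. Probes of Cdkn1a, Cdkn1c, Cdkn2a, Cdkn2b and Cdkn2c and 1 of the 3 Cdkn1b probes lie left of the lower limit, and the probes of Rb1, Rbl1, Rbl2 and Cdkn2d lie between the limits.

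By the brightest probe of each gene, Cdkn1c fell furthest of the 10 genes. It encodes p57, the Cip/Kip inhibitor expressed from the maternal allele. Its probe, named A_51_P339540, lies at chr7:139886128-139886187 on the minus strand of mouse build mm7. It gave signals of 3527, 3562 and 3586 in ES cell replicates 1 to 3, against 43325, 44151 and 44636 in MEF on the same arrays. Every ES cell signal lay below every MEF signal. Its log2 ratio was -3.63 ± 0.0098 (SD, n = 3), a level 12.4-fold lower in ES cells with a limma adjusted p of 1.85e-07. The ratio stood at percentile 1.61 of all tested probes.

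Cdkn1a, which encodes the p53-induced inhibitor p21, was read by a probe spotted 10 times on each array (A_51_P363947, chr17:27293819-27293878, plus strand). Its signals were 10714, 10675 and 10673 in ES cells, against 54621, 54594 and 54604 in MEF. The groups did not overlap. The log2 ratio was -2.35 ± 0.0028 (n = 3), or 5.11-fold lower in ES cells (adjusted p = 1.93e-07). Over the 10 spots on each of the 3 arrays, single ratios lay between -2.41 and -2.30, and the SD of spots within each array was larger than the SD between the array means.

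Cdkn1b encodes p27, the inhibitor known to build up in quiescent cells, and its 3 probes disagreed in size while all pointed downwards. They share no stretch of more than 7 bases. The sequences are shown because the call for the gene rests on which of them is read. The first 30 bases are given for the outer probe and the middle one, and all 60 for the probe that is spotted 10 times.

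A_51_P146126: ttcattgcctgtgtatgagaaaaacttgga
A_52_P673863: attagccaagcaaccataagactctagtca
A_51_P169173: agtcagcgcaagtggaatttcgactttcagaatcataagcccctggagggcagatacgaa

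The brightest Cdkn1b probe, A_51_P146126 (chr6:134939519-134939578), gave 2105, 2100 and 2058 in ES cells, against 11082, 11339 and 10862 in MEF. Its log2 ratio was -2.41 ± 0.020 (n = 3), or 5.31-fold lower in ES cells (adjusted p = 2.15e-07). This probe was designed on a cDNA clone and carries the name Cdkn1b in the array's own annotation. Both other Cdkn1b probes, which were not called, are annotated there to a RefSeq transcript. No annotation of build mm7 was used here, so whether the 3 probes read 1 transcript was not determined.

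The probe spotted 10 times, A_51_P169173, starts 4112 bases before the brightest one, at chr6:134935407-134935465. It gave 686, 684 and 691 in ES cells, against 1080, 1101 and 1101 in MEF. Again the groups did not overlap, but its log2 ratio of -0.67 ± 0.016 stayed inside the 2-fold limit and was not called (adjusted p = 3.20e-06). The middle probe, A_52_P673863 (chr6:134937910-134937969), was dim, with signals of 161, 184 and 157 in ES cells and 263, 300.1 and 272 in MEF. Its ratio of -0.74 ± 0.052 was not called either (adjusted p = 1.5e-05).
On every array both lay well above the brightest probe's ratio, by 1.74 ± 0.010 and 1.67 ± 0.065 on the log2 scale. With the probe of most spots, or the dimmest one, standing for the gene, Cdkn1b was not called and 5 of the 10 genes were lower. With the processed signals of the scanner software the middle probe reached -1.23 and was called lower.

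The INK4 genes fell in 3 of 4 cases. Cdkn2a, whose locus encodes both p16INK4a and the p53 activator ARF, was read by a probe spotted 10 times on each array (A_51_P144813, chr4:88678367-88678426, minus strand). It gave 1246, 1242 and 1248 in ES cells, against 4743, 4748 and 4728 in MEF, with no overlap. ES cells had a log2 ratio of -1.93 ± 0.0069 (n = 3), or 3.81-fold lower than MEF (adjusted p = 2.31e-07). Which of the transcripts of the locus the probe reads was not determined.

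RefSeq lists 2 start sites for Cdkn2a, and their promoter windows are shown because the single probe value cannot be assigned to one of them. Each window runs from 250 bases before to 50 after the start, on the minus strand of GRCm38.p6, at chr4:89294570-89294869 for the upstream start and chr4:89282143-89282442 for the downstream one. Capitals mark an E2F motif, searched on both strands as TTTCCCGC, TTTCGCGC, TTTGCCGC or TTTGGCGC.

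Cdkn2a upstream start: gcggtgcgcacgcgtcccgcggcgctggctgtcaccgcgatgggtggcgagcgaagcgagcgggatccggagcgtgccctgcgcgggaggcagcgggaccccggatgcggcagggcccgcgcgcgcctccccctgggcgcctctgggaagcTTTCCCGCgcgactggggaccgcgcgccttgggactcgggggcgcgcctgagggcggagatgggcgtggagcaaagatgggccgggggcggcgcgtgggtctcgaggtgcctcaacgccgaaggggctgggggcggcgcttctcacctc
Cdkn2a downstream start: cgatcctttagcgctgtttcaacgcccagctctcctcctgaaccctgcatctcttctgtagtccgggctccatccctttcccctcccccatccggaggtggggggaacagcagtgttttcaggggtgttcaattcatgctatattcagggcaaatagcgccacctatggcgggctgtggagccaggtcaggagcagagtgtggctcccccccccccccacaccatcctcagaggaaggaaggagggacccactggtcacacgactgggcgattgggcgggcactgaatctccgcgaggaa

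The upstream window holds TTTCCCGC 99 bases before the start, and the downstream window has no match to these letters. Of all 32851 mouse promoter windows of this length 2.26% hold the motif, and 2 of the 11 windows matched to 8 of the 10 genes do, the other being that of Rbl1. Neither match overlaps the GC box GGGCGG or the CCAAT box, the other motifs searched on both strands. The GC box occurs in 9 of the 11 windows and 35.7% of all windows, and the CCAAT box in 4 of the 11 and 37.4% of all. These shares were not matched for base composition. All windows had a median of 52.7% G and C, while the Cdkn2a upstream and Rbl1 windows, which hold the E2F motif, had 77.0% and 64.0%. A match describes letters and was not tested as a binding site.

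Cdkn2b encodes p15, the inhibitor known as a target of TGF-beta signalling, and lies beside Cdkn2a on chromosome 4. Its probe A_52_P498241, for which the files give no position, read 9117, 8664 and 8648 in ES cells, against 55992, 54389 and 54925 in MEF. The groups lay far apart. This gave a log2 ratio of -2.65 ± 0.025 (n = 3), or 6.26-fold lower in ES cells (adjusted p = 2.10e-07).

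Cdkn2c, the gene of p18, had the second lowest ratio of the 10 genes. The brighter of its probes, A_51_P513719 (chr4:109037613-109037672, minus strand), gave 468, 452 and 411 in ES cells, against 4917, 4844 and 4259 in MEF. On replicate 3 both channels read lower, and the ratio moved little. The log2 ratio was -3.40 ± 0.023 (n = 3), or 10.5-fold lower in ES cells (adjusted p = 1.85e-07). The second probe, A_51_P513720, read 363, 357 and 361 in ES cells, against 4025, 4051 and 4068 in MEF. Its ratio was -3.49 ± 0.017, but the probes share 40 bases and are not independent readings. With processed signals this second probe stood at -3.67, beyond Cdkn1c at -3.54, and with a normexp offset of 0 at -3.67 against -3.62, so which of the genes fell further rests on probe and background correction. Their first 30 bases are shown because part of the shared run ends the one and begins the other.

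A_51_P513719: tctcactgacctcacactgtccgttagttg
A_51_P513720: ccgttagttggttggctgtccgtttcacta

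Cdkn2d, which encodes p19INK4d, differed from the other INK4 genes in that it was not called. Its probe A_51_P122356 (chr9:21165094-21165153, minus strand) read 4120, 3837 and 4010 in ES cells, against 6046, 5676 and 6013 in MEF. The ES cell values were below the MEF values on each array. The log2 ratio was -0.57 ± 0.015 (n = 3), a 1.48-fold difference that exceeded the spread between arrays (adjusted p = 5.19e-06) and not the fold limit, at percentile 31.0 of all tested probes. With median centring in place of loess the ratio was -0.30.

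**Figure D2:**
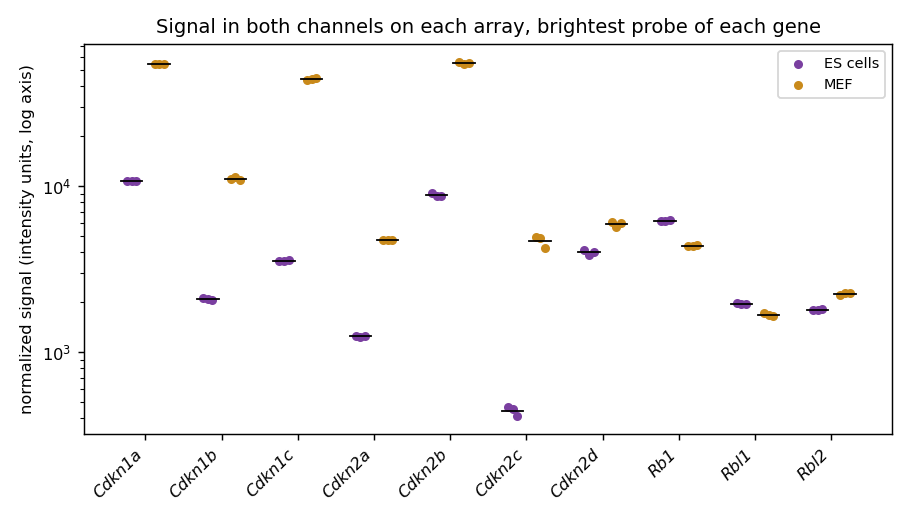
Normalized signal on a log axis for the brightest probe of each gene, with ES cells left of MEF, 1 point per array and a bar at the mean of 3 arrays. ES cell points lie below MEF points for all 7 inhibitor genes and for Rbl2, and above them for Rb1 and Rbl1.

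The retinoblastoma family stayed within the fold limit in all 3 genes. Rb1 encodes the retinoblastoma protein, which binds the activating E2F factors. Its brightest probe, A_51_P136888 (chr14:67877318-67877377, minus strand), was spotted 10 times on each array and gave 6182, 6161 and 6242 in ES cells, against 4366, 4342 and 4401 in MEF. Here every ES cell signal lay above every MEF signal. A log2 ratio of 0.50 ± 0.0015 (n = 3) resulted, a 1.42-fold difference that was not called (adjusted p = 5.15e-06).

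A second Rb1 probe, A_52_P419873, lies 66953 bases away at chr14:67944271-67944330 and was dim, with 267, 254 and 263 in ES cells, against 160, 160 and 163 in MEF. Its ratio was 0.70 ± 0.038 (adjusted p = 8.71e-06) and was not called. It is the one probe of the 15 that passed the fold limit upwards under another treatment of the signals, at 1.17 with the scanner software's processed signals, and its sequence is therefore shown whole.

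A_52_P419873: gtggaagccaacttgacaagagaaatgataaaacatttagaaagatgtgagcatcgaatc

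Rbl1 encodes p107, a pocket protein that is itself known as an E2F target. Its probe A_51_P286665 (chr2:156887297-156887356, minus strand) read 1985, 1954 and 1938 in ES cells, against 1721, 1676 and 1652 in MEF. The ES cell values were the higher ones on all arrays. The log2 ratio was 0.22 ± 0.012 (n = 3), a 1.16-fold difference that was not called (adjusted p = 0.000115), and it was 0.47 with median centring. The Rbl1 promoter window, at chr2:157204485-157204784 on the minus strand of GRCm38.p6, holds TTTCGCGC 18 bases before the start, in capitals here.

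Rbl1 start: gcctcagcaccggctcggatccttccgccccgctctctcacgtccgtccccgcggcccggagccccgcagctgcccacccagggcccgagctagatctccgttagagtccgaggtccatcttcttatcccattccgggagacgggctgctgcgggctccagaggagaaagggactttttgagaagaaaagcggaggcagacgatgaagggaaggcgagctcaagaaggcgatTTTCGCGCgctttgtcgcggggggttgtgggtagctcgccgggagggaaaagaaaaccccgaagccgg

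Rbl2 encodes p130, the pocket protein that predominates in quiescent cells as part of the repressive DREAM complex. Its brighter probe, A_52_P117325 (chr8:89715790-89715849, plus strand), gave 1784, 1805 and 1809 in ES cells, against 2206, 2276 and 2264 in MEF. The ratio was -0.32 ± 0.014 (n = 3) and was not called (adjusted p = 3.26e-05). The second probe, A_51_P457113, starts 758 bases away and read 410, 384 and 384 in ES cells, against 542, 534 and 527 in MEF. Its ratio of -0.44 ± 0.038 was not called either. Both probes pointed downwards on all 3 arrays, but with median centring the brighter one stood at -0.071, so the size of this difference rests on the normalization.

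Ordered by ratio, the genes ran from Cdkn1c through Cdkn2c, Cdkn2b, Cdkn1b, Cdkn1a, Cdkn2a, Cdkn2d, Rbl2 and Rbl1 to Rb1. No neighbours in this order overlapped over the arrays, although Cdkn1b would stand between Cdkn2a and Cdkn2d by either of its other probes. All 7 inhibitor genes had negative ratios, and Rb1 and Rbl1 had positive ones, on 3 of 3 arrays and under each alternative treatment that was run.

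**Figure D3:**
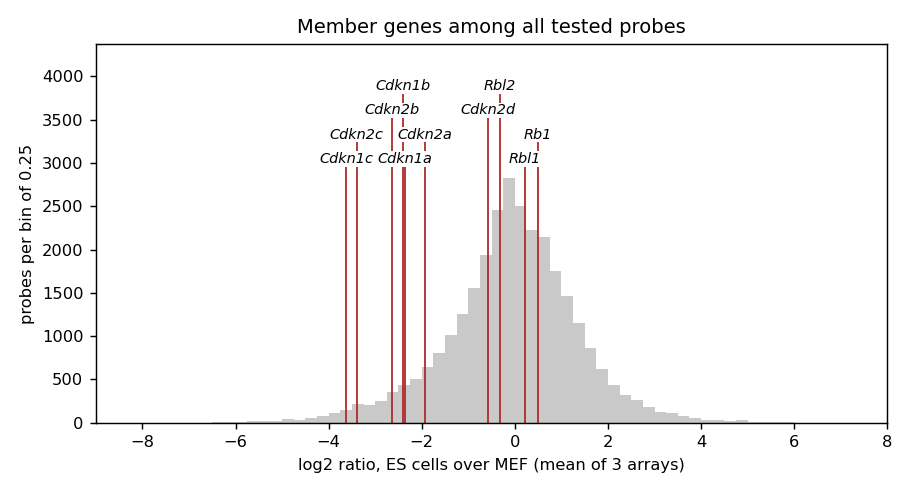
Histogram of the mean log2 ratio of ES cells over MEF for all 29458 tested probes, with a red line at the brightest probe of each of the 10 genes. Cdkn1c and Cdkn2c stand in the lower tail, at percentiles 1.61 and 2.19, and the retinoblastoma family lies in the body of the histogram.

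Probes spotted 10 times on each array existed for Cdkn1a, Cdkn1b, Cdkn2a and Rb1 and give the precision within an array. The SD of the 10 spot ratios was at most 0.024 for Cdkn1a and for Rb1, 0.044 for Cdkn2a and 0.046 for Cdkn1b. The difference of 1.74 between Cdkn1b probes was far above the spot SD of A_51_P169173. The other probe of that difference, A_51_P146126, had 1 spot per array, so its spread of spots was not measured.

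**Figure D4:**
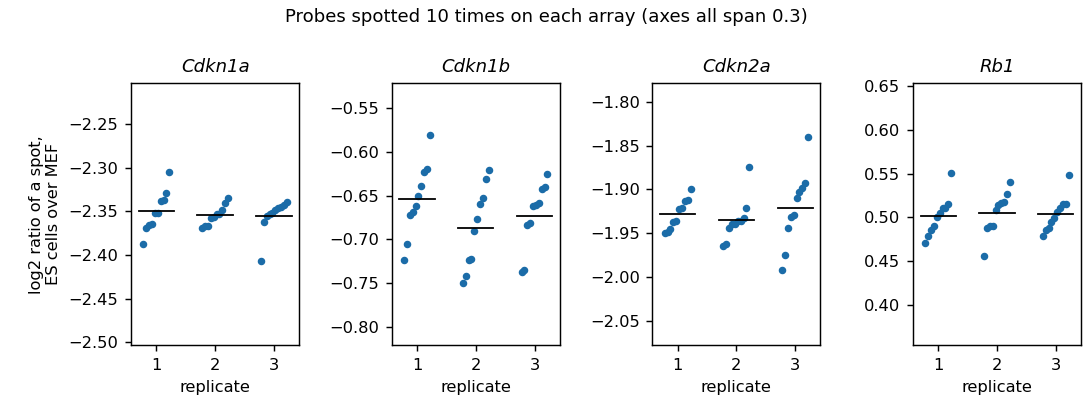
Log2 ratio of ES cells over MEF for each of the 10 spots of a probe, sorted within each replicate, with a bar at the mean of the array. All 4 axes span the same range but start at different values, and the array means of Cdkn1a, Cdkn2a and Rb1 lie closer together than their spots.

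Genes around the inhibitors were read from lists of the pathway. Most listed E2F target genes carry out DNA replication, and the cyclin genes Ccne1 and Ccna2 among them were counted in the cyclin list too. The list was chosen with earlier results of these data known and is not a full set of E2F targets. For example, it leaves out Rbl1, a known E2F target at 0.22, so its counts depend on which targets were listed. Of its 18 genes 16 were called higher in ES cells and 0 lower, where 20.4% of all tested genes were higher. The median log2 ratio of these genes was 1.95. Among them the origin recognition gene Orc1 had a ratio of 2.98 ± 0.023 and the licensing factor gene Cdt1 one of 2.71 ± 0.0087 (n = 3). The ribonucleotide reductase gene Rrm1, at 0.92, and the thymidine kinase gene Tk1, at 0.76, were not called. The E2F and DP factor genes were higher in 6 of 10 cases and lower in 0, with a median of 1.31. The DP partner gene Tfdp2 had a ratio of 2.75 ± 0.054 and the repressor gene E2f8 one of 2.29 ± 0.032, while E2f1, at 0.16, was not called. The other E2f8 probe gave 0.76, inside the fold limit, and the lowest of 3 Tfdp2 probes gave 1.36. E2f6 was not called by its brightest probe (0.13), but its other probe gave -1.43, beyond the fold limit downwards. Of the MuvB and DREAM partners, which bind p107 and p130 or the B-Myb factor, 3 of 6 were higher and 0 lower (median 1.11). With median centring 5 were higher, and by the mean of a gene's probes 2 were. The B-Myb gene Mybl2 stood at 2.70 ± 0.044 and Lin9 at 1.60 ± 0.017. The lowest of 3 Lin9 probes gave 0.77, inside the fold limit.

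Of 10 genes for G1 and S phase cyclins, their kinases and the phosphatase Cdc25a 2 were called higher and 3 lower. Their median ratio was 0.24, and the counts lay near the 20.4% and 22.5% of all tested genes. With processed signals or median centring the counts were 3 higher and 2 lower. Cyclin D2 (Ccnd2), the activator of the kinases that INK4 proteins bind, stood at -3.97 ± 0.013. Cyclin E1 (Ccne1) stood at 1.46 ± 0.025 and cyclin A2 (Ccna2) at 1.53 ± 0.0050. The kinase gene Cdk4 had a ratio of 0.0030 ± 0.011 and was not called. Cdk6 was called lower by its brightest probe (-1.49 ± 0.015), but its 3 probes ran up to 2.14 and their mean was 0.21, so no direction can be given for it.

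Of the ubiquitin ligase genes that turn over p27, p21 or p57, 3 of 8 were higher and 1 lower (median ratio 0.35), where 20.4% of all tested genes were higher and 22.5% lower. The substrate receptor genes Dtl, at 2.66 ± 0.0064, and Skp2, at 1.496 ± 0.033, were among the higher ones. Cul4a was lower at -1.08 ± 0.019, a call that was lost with processed signals (-0.94), median centring (-0.80) and the mean of its probes (-0.79). Rbx1 was not called by its brightest probe (0.12), but the lowest of its 3 probes gave -1.15. Of 5 other inhibitors of cyclin-dependent kinases 1 was higher and 0 were lower (median 0.51). The higher one was Wee1, whose product is a kinase that holds back entry into mitosis (1.72 ± 0.039). With median centring 2 were higher. Hexim1 was not called by its brightest probe (-0.65), but its other probe gave -2.94.

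Of known regulators of the Cdkn2a and Cdkn2b locus 4 of 11 were called higher and 4 lower, with a median ratio of -0.90, where 20.4% of all tested genes were higher and 22.5% lower. The Polycomb genes Cbx7, at 4.09 ± 0.10, and Ezh2, at 2.40 ± 0.024, both known as repressors of the locus, were higher in ES cells. Bmi1, another Polycomb repressor, was lower at -1.44 ± 0.036. Ets1, at -2.45 ± 0.013, and Ets2, at -2.12 ± 0.0043, known from human fibroblasts as activators of p16INK4a, were lower. Of 6 regulators of Cdkn1a 1 was higher, Klf4 (1.28 ± 0.014), and 1 lower, Myc (-1.54 ± 0.0056), with a median of 0.65. The higher count was 2 without replicate 1 or with a normexp offset of 0, and 3 with processed signals, the authors' value table or median centring. Mdm2, at 0.99, was not called. Trp53 was not called at 0.94, and its other probe gave -0.59. E2f1, E2f6, Rrm1, Tk1, Cdk4, Rbx1, Hexim1, Bmi1, Tbx3, Dmtf1, Kdm6b, Mdm2 and Trp53 were named after their values were seen.

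**Figure D5:**
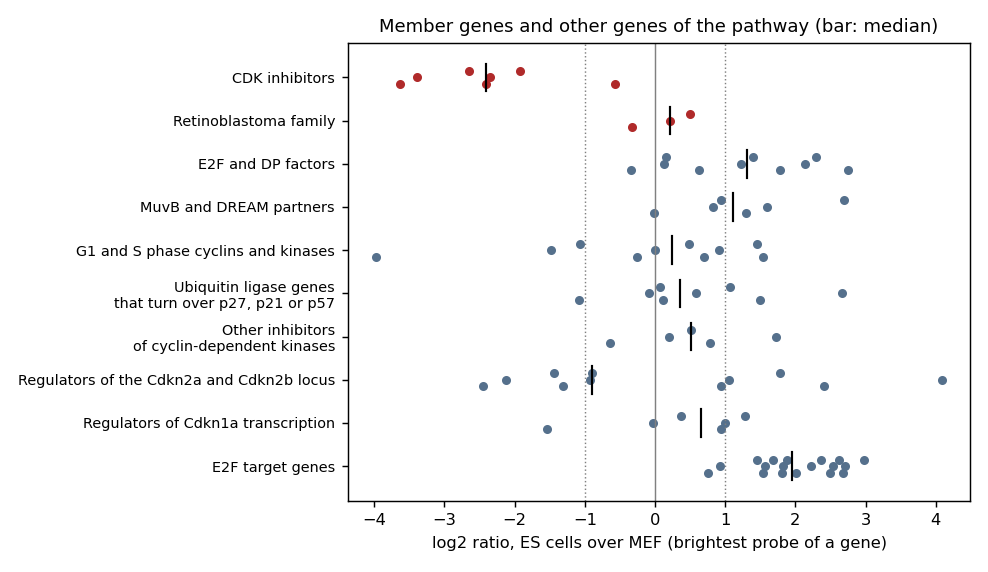
Log2 ratio of ES cells over MEF for the brightest probe of each gene, the 10 genes in red and the pathway lists in blue, with a bar at the median of each row. The listed E2F targets all lie right of 0, from 0.76 to 2.98, and the inhibitor genes in red all lie left of it.

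The labelled cell types were checked against their markers. All 5 ES cell markers were higher in ES cells (median ratio 4.02), with summed signals of 381782 to 387117 in ES cells, against 12432 to 12911 in MEF. All 5 fibroblast markers were lower (median -7.36), with sums of 32762 to 34409 in ES cells, against 1484610 to 1496510 in MEF. Of 6 macrophage markers 5 were also lower in ES cells (median -4.99), with sums of 11625 to 12027 in ES cells, against 391555 to 419028 in MEF. The macrophage markers thus moved with the inhibitor genes, and their part in the results was not tested. Of 3 endothelial markers Pecam1 was higher (2.59) and Kdr lower (-1.40), with sums of 1986 to 2013 in ES cells, against 1038 to 1048 in MEF. Keratin genes Krt5 (0.70) and Krt14 (0.29) were not called, with sums of 745 to 822 in ES cells, against 523 to 600.1 in MEF. Cdh5 and Trp63 did not pass the filter on dim probes. In these mixed RNA samples a lower level per cell and fewer cells that express a gene cannot be told apart.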

How the data were processed

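The 3 arrays were read with Agilent Feature Extraction 9.5.3.1 and lay on 1 slide, scanned together, per the file headers, so no batch could be tested. The authors deposited spot and background intensity values (mean and median pixel brightness), processed signal intensity, a log10 ratio of MEF over ES cells, and a log2 value table that came within 0.01 of the sign-turned processed ratio for 85.3% to 87.7% of probes. Of the value table's columns, the medians were 0.213, 0.0859 and -0.143, so they are not centred. The deposited log10 ratio was exactly 0 for 11.9% to 14.2% of gene spots, and whether these were the remaining probes was not tested. Probe positions use build mm7, per the file headers. The design text names the Cy5 sample as a numbered mix, and MEF was taken from the sample labels. Whether that sample held RNA other than that of MEF was not determined.

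From the deposited intensity values, mean signals were corrected with normexp (offset 50, which shrinks ratios of dim probes) and normalized by loess within arrays in limma 3.58.1 under R 4.3.3, with control spots at weight 0. The sign was set to ES cells over MEF, outlier spots (117 to 144 per array) were dropped and spots of a probe averaged. Linear signals came from Aquantile after loess. Probes well above background in either channel on all 3 arrays were kept (29458), and the brightest probe stood for its gene. Ratios were tested against 0 (lmFit and eBayes with an intercept only, and Benjamini-Hochberg adjustment over all kept probes). A fold is 2 to the power of the mean ratio's size. Gene names came from the RefSeq table of GRCm38.p6 for 22951 probes by accession and 9768 by symbol or synonym, and 8455 kept the name in the file. Promoters came from RefSeq for 8 of the 10 genes, Cdkn1c and Rb1 being the others.

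Median gene spot signals were 398 to 421 in ES cells and 381 to 391 in MEF, over backgrounds of 45 to 56 and 38 to 41.5. The number of arrays limits the precision. Arrays correlated at 0.998 across probes, which are not independent replicates. On simulated arrays with 28822 probes, all 50 probes at each log2 ratio of -3, -1.5, 1.5 and 3 were called with the right sign and 0 of 28622 unchanged probes were called. A constant dye offset over all spots was simulated, but no dye bias of single probes or of brightness. Nearly all simulated probes, 28622 of 28822, were left unchanged, whereas 41.0% of all tested probes were called in the data. How loess behaves when so many probes differ was thus not tested.

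All 10 genes and every probe of them are named. From each pathway list, up to 2 genes called higher with the highest ratios and up to 2 called lower with the lowest ratios are named. The members and lists were chosen with earlier results of these data known. Alternatives were other background corrections, processed signals, the value table, median centring, other filters and call rules, other ways to choose a gene's probe, and leaving out each array.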

Additional observations from a re-analysis of the deposited data

How the results depend on the processing

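No ratio of the 10 genes changed sign under any alternative, and the counts of genes and probes called lower stayed within 1.5 times of the reported ones except without a fold minimum. Leaving out each array in turn gave 6 of the 10 genes and 7 of the 15 probes lower and 0 higher each time, with 5800 to 5905 of all probes higher and 6166 to 6257 lower. Without a fold minimum 13830 of all probes were higher and 14274 lower, 3 of the 15 probes were higher and 12 lower, and 2 of the 10 genes were higher and 8 lower. With the scanner software's processed signals, and with the authors' value table, 1 of the 15 probes was higher, the Rb1 probe A_52_P419873. Median centring in place of loess raised the median of all probes by 0.17 and brought Cdkn1a to -2.08, Cdkn1c to -3.35, Rb1 to 0.77 and Rbl2 to -0.071. The cause was not tested. With 2 choices of probe added after seeing the data, the one with most spots and the dimmest one, Cdkn1b was not called (-0.67 and -0.74), and with the mean of its probes it was called at -1.27. Cdk6, by the mean of its own probes, reversed to 0.21. The dim probes A_52_P419873 and A_52_P673863 reached 1.17 and -1.23 with processed signals, and normexp with an offset shrinks such ratios. The ratio within each array already pairs the samples, so no further block was fitted.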
